A study of Rattus norvegicus with 10 samples.

Results

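In muscle from beneath the skin of arthritic rats, 10 genes of T cells and cytotoxic lymphocytes were followed: Cd3e, Cd3d, Cd2, Cd8a, Lck, Zap70, Nkg7, Prf1, Gzmb and Gzmk. They were chosen by name, with earlier results of these data known. All 10 of the 10 symbols were in the deposited table, each as 1 transcript, and that table holds 16497 symbols in 17221 transcripts. All animals were Wistar females in which arthritis had been induced by immunising with collagen, as a model of the human rheumatoid disease, and every group used here carried it. RA_0 is the group from before therapy. Libraries of AP_1h and AP_34d were made from tissue taken 1 h and 34 days into acupuncture, in which a needle was put in and twirled. Those of PLA_1h and PLA_34d were taken at the same times of placebo, saline injected into the peritoneum. Each group had 2 libraries, 10 in all, and the age of the animals is not given in the labels. The labels number these libraries as replicates without saying whether they came from separate animals, so the tests measure only the spread between the libraries. No healthy animals entered these libraries.

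A T cell recognises its antigen through a receptor held in the membrane by the CD3 proteins, with CD4 or CD8 as coreceptor. The kinase Lck and then the kinase ZAP-70 pass the signal on. Cytotoxic T cells and natural killer (NK) cells kill by releasing granules, in which perforin opens the target's membrane for the granzymes. In healthy muscle such cells are few, so their RNA makes up little of a whole-tissue library.

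The deposited value is CPM, counts per 1e+06 reads with a scaling factor for each library (TMM, trimmed mean of M values). The libraries held between 5371687 and 8899521 counted reads, and 1 read was worth between 0.0991 and 0.239 CPM. A count of 0 therefore allows up to between 0.297 and 0.716 CPM (3 reads). Genes of the skeletal muscle fibre were abundant in every library, with a summed level between 106337 and 321117 CPM over 9 genes, and the 3 keratinocyte genes in the table summed to between 1.76 and 6.11 CPM, of which Krt10 between 1.17 and 5.4 CPM.

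A pair of libraries stood apart from the other 8 in the T cell genes, PLA_34d replicate 1 and, less far, AP_1h replicate 1. The summed level of the 10 members was 186 CPM (1661 reads) in PLA_34d replicate 1 and 35.1 CPM (325 reads) in AP_1h replicate 1. The same sum was 5.49 and 4.31 CPM in RA_0, 7.56 in AP_1h replicate 2, 10.6 and 5.09 in PLA_1h, 7.03 and 3.14 in AP_34d and 8.96 in PLA_34d replicate 2. The 8 low libraries thus rested on between 21 and 107 reads each over all 10 genes. PLA_34d replicate 1 was also the library with the lowest muscle fibre sum and with the highest sum of B cell genes (570 CPM, between 3.88 and 21.0 CPM in the other 9). Log2 differences of members in comparisons with either library are therefore given, for several members, also without it. In whole tissue, more cells of a type and more RNA per cell cannot be told apart.

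The stretches before the genes' starts are shown for the members that represent the 2 patterns described below: Cd3e and Prf1, highest in PLA_34d replicate 1, and Nkg7 and Gzmb, highest in AP_1h replicate 1. Each is the 250 bases before the start in RefSeq, build GRCr8, a later build than the rn4 of the expression table: chr8:54211771-54212020 on the minus strand, chr20:29788790-29789039 on the plus strand, chr1:102981247-102981496 on the plus strand and chr15:34462470-34462719 on the minus strand. Capitals mark matches on either strand to GGAAG, the core bound by ETS factors, TGTGGT, the core bound by RUNX factors, and TGACGT, the core of the CRE bound by CREB and ATF factors.
Cd3e: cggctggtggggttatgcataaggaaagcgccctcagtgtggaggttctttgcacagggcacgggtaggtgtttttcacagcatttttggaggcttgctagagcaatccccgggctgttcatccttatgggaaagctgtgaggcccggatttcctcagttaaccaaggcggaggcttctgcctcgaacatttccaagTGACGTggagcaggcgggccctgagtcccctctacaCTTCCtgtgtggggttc
Prf1: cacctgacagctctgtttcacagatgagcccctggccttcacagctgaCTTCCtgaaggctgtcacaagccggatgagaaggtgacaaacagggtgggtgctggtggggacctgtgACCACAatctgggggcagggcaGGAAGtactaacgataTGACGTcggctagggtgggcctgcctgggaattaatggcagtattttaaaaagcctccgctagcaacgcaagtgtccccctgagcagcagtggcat
Nkg7: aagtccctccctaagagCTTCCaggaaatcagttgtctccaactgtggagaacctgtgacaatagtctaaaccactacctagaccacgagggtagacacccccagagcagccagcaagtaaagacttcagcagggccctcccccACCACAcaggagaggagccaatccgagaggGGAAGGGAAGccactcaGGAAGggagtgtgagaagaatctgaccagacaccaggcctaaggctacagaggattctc
Gzmb: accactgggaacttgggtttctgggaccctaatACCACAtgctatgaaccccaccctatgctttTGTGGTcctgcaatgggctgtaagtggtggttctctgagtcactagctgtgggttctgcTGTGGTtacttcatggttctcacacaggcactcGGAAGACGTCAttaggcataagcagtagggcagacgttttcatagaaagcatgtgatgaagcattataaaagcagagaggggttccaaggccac
Over all 11 windows of the 10 members (Lck has 2 starts), GGAAG was found in 9, against 63.3% of 33469 windows of the same length in the rat table. TGTGGT was found in 6 of the 11, against 14.5% of all windows, and TGACGT in 4 of the 11, against 6.95%. Gzmb held 3 matches to TGTGGT, and in its window the GGAAG lies directly beside the reversed TGACGT. Both patterns include windows with all 3 motifs (Prf1 and Gzmb). A match describes the letters and is no evidence of binding.

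Cd3e and Cd3d encode invariant chains of the CD3 complex and define T cells. Cd3e, on chromosome 8 from 47947257 to 47958419 on the minus strand of rn4, stood at 0.239 and 0.297 CPM in RA_0, 4.22 and 0.42 in AP_1h, 0.991 and 0.877 in PLA_1h, 0.195 and 0.299 in AP_34d, and 36.3 and 0.284 in PLA_34d, replicate 1 first in each pair. Cd3d, its neighbour on chromosome 8 from 47932151 to 47936744 on the plus strand, stood at 0.477 and 0 CPM in RA_0, 1.41 and 0.28 in AP_1h, 0.297 and 0 in PLA_1h, 0.195 and 0 in AP_34d, and 14.8 and 0.711 in PLA_34d. For both genes PLA_34d replicate 1 was highest and AP_1h replicate 1 second, with the other 8 libraries at 0.991 CPM or below for Cd3e and at 0.711 CPM or below for Cd3d. Cd3e was 8.62 times as high in PLA_34d replicate 1 as in AP_1h replicate 1 (95% exact counting interval 6.17 to 12.3) and Cd3d 10.5 times (5.95 to 20.3). Cd3d was at 0 in 3 libraries. Intervals here and below cover counting error only.

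Cd2 encodes an adhesion receptor of T and NK cells, and Cd8a a chain of the coreceptor of cytotoxic T cells. Cd2 stood at 0.716 and 0.297 CPM in RA_0, 4.11 and 0.42 in AP_1h, 1.88 and 1.4 in PLA_1h, 0.586 and 0.149 in AP_34d, and 19.5 and 0.995 in PLA_34d. Both PLA_1h libraries lay above all other libraries but the 2 high ones for Cd2. Its rn4 entry spans 365348 bases, from 196332547 to 196697894 on the minus strand of chromosome 2, and overlaps entries of other genes, so its reads are less certain than those of the other 9 members, which overlap no other entry. Cd8a (chromosome 4, 104589922 to 104594159, plus strand) stood at 0.716 and 1.34 CPM in RA_0, 4.86 and 1.12 in AP_1h, 1.49 and 0.526 in PLA_1h, 1.56 and 0.896 in AP_34d, and 24.6 and 0.995 in PLA_34d. Its 8 low libraries ran between 0.526 and 1.56 CPM, with RA_0 inside that range.

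Lck encodes the kinase that starts receptor signalling, and Zap70 the kinase recruited to the phosphorylated receptor. Lck (chromosome 5, 148707505 to 148718296, minus strand) stood at 0.477 and 0.446 CPM in RA_0, 4.43 and 0.84 in AP_1h, 0.991 and 0.351 in PLA_1h, 1.95 and 0.747 in AP_34d, and 49.2 and 1.56 in PLA_34d. Among the members it had the steepest step between the 2 high libraries, 11.1 times as high in PLA_34d replicate 1 as in AP_1h replicate 1 (95% exact counting interval 8.06 to 15.7), though this interval overlaps those of Cd3e and Cd3d. Zap70 (chromosome 9, 35693089 to 35715071, plus strand) stood at 0.239 and 0.149 CPM in RA_0, 3.03 and 0.42 in AP_1h, 0.892 and 0.175 in PLA_1h, 0.391 and 0 in AP_34d, and 18.6 and 0.711 in PLA_34d. Its order was that of Cd3e, with PLA_34d replicate 1 first, AP_1h replicate 1 next and PLA_1h replicate 1 after it.

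Nkg7 encodes a protein of cytotoxic granule membranes and Prf1 perforin. Nkg7 (chromosome 1, 93813123 to 93814190, plus strand) stood at 0.239 and 0.743 CPM in RA_0, 4.86 and 0.98 in AP_1h, 0.991 and 0.351 in PLA_1h, 0.586 and 0.448 in AP_34d, and 1.68 and 1.14 in PLA_34d. Here AP_1h replicate 1 was highest, and PLA_34d replicate 1 reached 0.346 times its level (95% exact counting interval 0.179 to 0.632). Prf1 (chromosome 20, 28658367 to 28663875, plus strand) stood at 0.954 and 0.743 CPM in RA_0, 3.03 and 0.84 in AP_1h, 2.38 and 0.702 in PLA_1h, 0.195 and 0.299 in AP_34d, and 19.1 and 1.99 in PLA_34d. Unlike the other 3 granule genes it was highest in PLA_34d replicate 1, at 6.30 times its AP_1h replicate 1 level (4.21 to 9.76). Both AP_34d libraries (1 and 2 reads) lay below both RA_0 libraries (4 and 5 reads), as for 14.1% of transcripts with a read. The counting intervals of these AP_34d and RA_0 libraries overlapped.

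Gzmb and Gzmk encode granzymes, serine proteases of the granules. Gzmb (chromosome 15, 35195075 to 35198506, minus strand) stood at 0.716 and 0.149 CPM in RA_0, 1.84 and 0.56 in AP_1h, 0.297 and 0.175 in PLA_1h, 0.195 and 0.149 in AP_34d, and 0.673 and 0.284 in PLA_34d. That is 17 reads in AP_1h replicate 1 and between 1 and 6 reads in every other library, and Gzmb has near relatives among the granzymes and mast cell proteases with which reads may be shared. Gzmk (chromosome 2, 44589295 to 44597386, minus strand) stood at 0.716 and 0.149 CPM in RA_0, 3.35 and 1.68 in AP_1h, 0.397 and 0.526 in PLA_1h, 1.17 and 0.149 in AP_34d, and 1.79 and 0.284 in PLA_34d. Both were highest in AP_1h replicate 1. PLA_34d replicate 1 held 0.366 times that level of Gzmb (0.118 to 0.973) and 0.536 times that of Gzmk (0.274 to 1.01), so the step for Gzmk was within counting error.

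**Figure D1:**
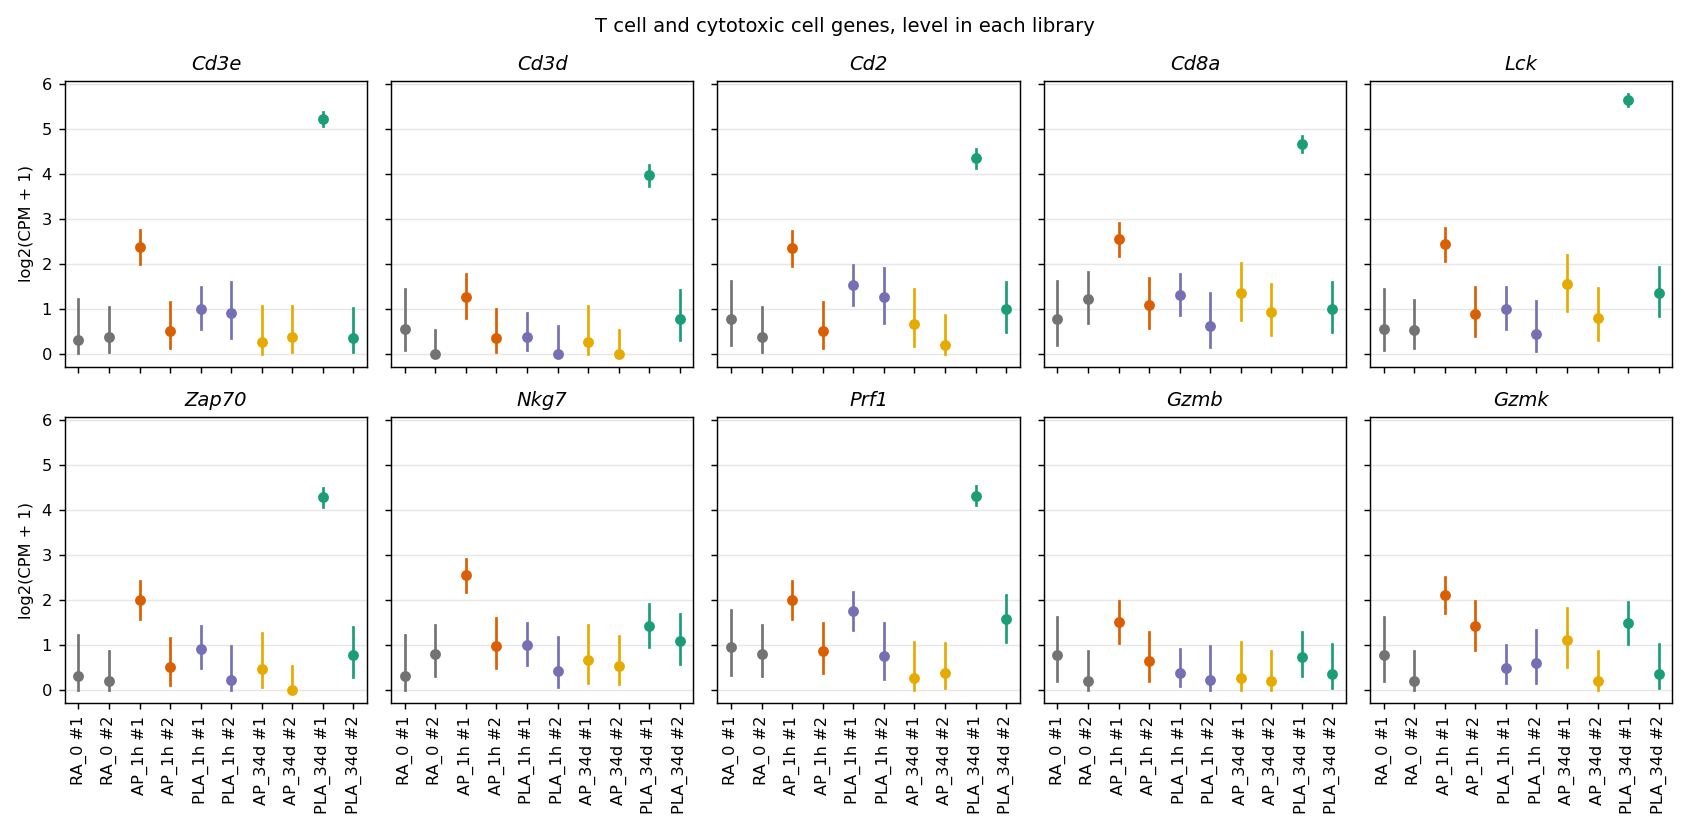
Level of each of the 10 genes in each of the 10 libraries, as log2(CPM + 1), with exact 95% counting intervals as vertical lines (up to 3 reads where the count is 0) and colours by group (#1 and #2 are the replicates). PLA_34d #1 is highest for 7 genes and AP_1h #1 for Nkg7, Gzmb and Gzmk.

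In all, 7 of the 10 members were highest of the 10 libraries in PLA_34d replicate 1, where 22.4% of the 13865 transcripts with a read had their highest value. Among the 9 libraries without it, AP_1h replicate 1 was highest for 10 of 10 members, against 13.7% of transcripts. For 9 of 10 members both of these libraries lay above the other 8, against 6.25% of transcripts; Gzmb was the exception, since RA_0 replicate 1 lay between them. Neither order followed the groups. All 10 members were higher in AP_1h replicate 1 than in AP_1h replicate 2 (47.9% of transcripts), and all 10 were higher in PLA_34d replicate 1 than in PLA_34d replicate 2 (54.1% of transcripts). Both libraries were singled out by these same member values, a choice not made for all transcripts. The counts therefore describe the 2 libraries and are no independent support. Within AP_1h the ratio of replicate 1 to replicate 2 ran from 2.00 for Gzmk (95% exact counting interval 0.997 to 4.27) to 10.0 for Cd3e (3.19 to 50.8). Within PLA_34d the ratio ran from 1.48 for Nkg7 (0.589 to 4.03) to 128 for Cd3e (35.1 to 1060).

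The makeup of the member reads differed between the 2 high libraries. Reads on the 4 granule genes (Nkg7, Prf1, Gzmb and Gzmk) made up 12.5% of the 1661 member reads in PLA_34d replicate 1 (95% Wilson interval 11% to 14.1%) and 37.2% of the 325 in AP_1h replicate 1 (32.2% to 42.6%). In the other 8 libraries the share lay between 30.6% and 53.7%, and each of their intervals held the value of AP_1h replicate 1 except that of AP_1h replicate 2, at 53.7% (40.6% to 66.3%). The interval of PLA_34d replicate 1 lay below those of all other 9 libraries. No test across groups was made of this share, because a single library carries it.

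**Figure D2:**
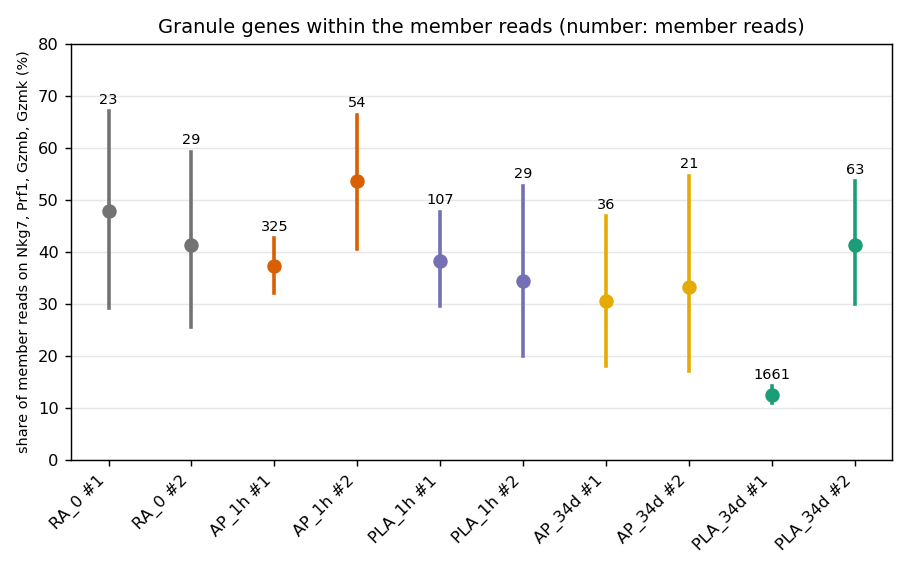
Share of the reads on the 10 members that fell on Nkg7, Prf1, Gzmb and Gzmk, in percent, with 95% Wilson intervals and the number of member reads above each. PLA_34d #1, with 1661 member reads, is lowest at 12.5%, and AP_1h #1 is at 37.2%.

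Cst7 encodes cystatin F, an inhibitor of the cathepsins that activate granzymes, found in cytotoxic lymphocytes and in myeloid cells. Its order across all 10 libraries differed from that of the members, most of all in PLA_34d replicate 1. Cst7 (chromosome 3, 141188442 to 141199756, plus strand) stood at 5.01 and 14 CPM in RA_0, 416 and 293 in AP_1h, 81.4 and 23.2 in PLA_1h, 22.1 and 17.3 in AP_34d, and 10.3 and 13.5 in PLA_34d. Both AP_1h libraries were thus high in Cst7, with replicate 1 at 1.42 times replicate 2 (95% exact counting interval 1.34 to 1.5), while the ratio for the members was between 2.00 and 10.0. The ratio of Cst7 to the summed member CPM, not corrected for transcript length and so read only between libraries, was 11.8 in AP_1h replicate 1 and 38.8 in AP_1h replicate 2. In PLA_34d replicate 1, the library with the most member reads, Cst7 was second lowest of 10 and the same ratio was 0.0554. The Pearson r of Cst7 with the mean standardised profile of the 6 members that passed the filter was 0.24 over the 10 libraries and 0.73 over the 9 without PLA_34d replicate 1, on log2(CPM + 1) values that share each library's depth. Among tested transcripts ordered by this r, Cst7 ranked 3030 over the 10 libraries and 241 over the 9. These are descriptions of few libraries.

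**Figure D3:**
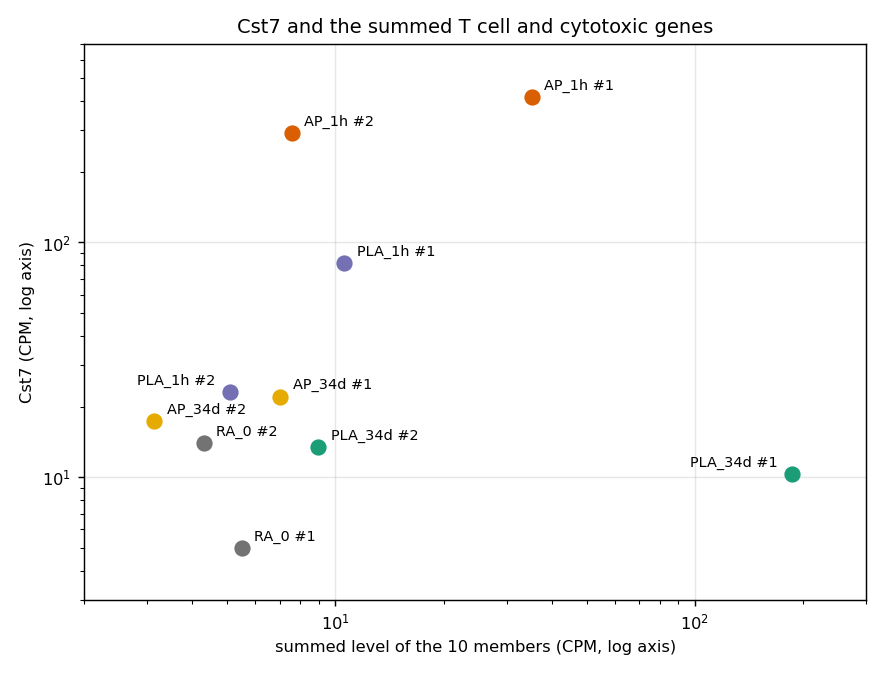
Cst7 against the summed level of the 10 members in each library, both in CPM on log axes, coloured by group. AP_1h #1 and AP_1h #2 are both high in Cst7 at member sums of 35.1 and 7.56 CPM, and PLA_34d #1 combines the highest member sum with a Cst7 of 10.3 CPM.

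The first comparison asked whether the members changed 1 h after acupuncture. Group means for AP_1h and RA_0 (mean ± SD, n = 2) were 2.92 ± 2.75 and 0.491 ± 0.356 CPM for Nkg7, 2.52 ± 1.18 and 0.432 ± 0.401 CPM for Gzmk, and 2.32 ± 2.68 and 0.268 ± 0.0413 CPM for Cd3e. Both AP_1h libraries lay above both RA_0 libraries for 5 of 10 members (Cd3e, Lck, Zap70, Nkg7 and Gzmk), a pattern shown by 18.2% of transcripts with a read. Replicate 1 of AP_1h lay above both RA_0 libraries for all 10 members. The count thus turned on replicate 2 and is no independent support. The test was limma on log2(CPM + 1) over all 10 libraries, and an adjusted p under 0.05 (Benjamini-Hochberg over all transcripts tested) counted as a call. It could take in 6 members, and it called 0 of them in AP_1h against RA_0, where 3 of 10259 transcripts (0.0292%) were called. Cst7 was one of the 3, with a log2 difference of 5.21 ± 0.57 (SE, limma adjusted p = 0.0358). This call was lost under 11 of 23 alternatives, among them limma-voom (adjusted p = 0.141), edgeR (adjusted p = 0.0713) and the replicate block (limma adjusted p = 0.0808). It was kept under 12, among them DESeq2 (adjusted p = 3.67e-14) and the compared groups alone (limma adjusted p = 0.000251). The tested members closest to a call were Gzmk, with a log2 difference of 1.28 ± 0.52 (limma adjusted p = 0.519), and Nkg7, with 1.21 ± 0.52 (limma adjusted p = 0.545). These 2 had unadjusted p under 0.05, as did 912 of the 10259 transcripts. Without AP_1h replicate 1 the log2 differences of Lck, Cd8a and Nkg7 were 0.33, 0.08 and 0.43, and those of Cd2 and Prf1 were -0.071 and -0.0045. That of Gzmk was 0.93, with 0 members called.

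Only some members entered that test. To enter, a transcript had to reach 1 CPM in each library of some group, and Cd3e, Cd3d, Zap70 and Gzmb did so in no group, since their high values came from single libraries. Lck, Prf1 and Nkg7 passed through PLA_34d, Gzmk and Cd8a through AP_1h, and Cd2 through PLA_1h, so the values of the 6 are not those of all members. When every transcript with a read was fitted, all 10 members had estimates and 0 were called in any comparison. In AP_1h against RA_0 these 10 were all positive, with a median log2 difference of 0.93, while 48.4% of the 13865 transcripts were positive, with a median of 0.00. In PLA_34d against RA_0 the 10 were again all positive, with a median of 2.08 (all transcripts 51.3% positive, median 0.02). These fits share RA_0, each rests on 1 high library, and neither was refitted with no filter and without that library.

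Placebo at 1 h was compared with RA_0 next. Both PLA_1h libraries lay above both RA_0 libraries for 2 of 10 members, Cd3e and Cd2 (13.9% of transcripts). For Cd2 the means were 1.64 ± 0.34 CPM in PLA_1h and 0.506 ± 0.296 CPM in RA_0, a log2 difference of 0.82 ± 0.93 (SE, limma adjusted p = 1.00). No member of the 6 was called, and 0 of 10259 transcripts (0%) were, with 0 members and 266 transcripts at an unadjusted p under 0.05. With acupuncture set against placebo at 1 h, both AP_1h libraries lay above both PLA_1h libraries for Gzmb and Gzmk (2 of 10, against 13.3% of transcripts). For Gzmb this rested on 17 and 4 reads against 3 and 1. As AP_1h replicate 1 was picked for its height in the members, the count turned on replicate 2 and is no independent support. The mean of Gzmk was 2.52 ± 1.18 CPM in AP_1h and 0.462 ± 0.0919 CPM in PLA_1h, a log2 difference of 1.23 ± 0.52 (limma adjusted p = 1.00). Here limma called 0 of 6 members and 0 of 10259 transcripts (0%), with 1 member and 414 transcripts at an unadjusted p under 0.05. Cst7, at a log2 difference of 2.97 ± 0.57, was not called by limma (adjusted p = 0.445) but was called by DESeq2 (adjusted p = 0.00161). The log2 difference of Cd2 in AP_1h against PLA_1h was 0.03 ± 0.93, and its values overlapped between acupuncture and placebo. Without AP_1h replicate 1 the log2 differences of Gzmk and Nkg7 were 0.88 and 0.27, with 0 members called.

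At 34 days the members were low in both acupuncture libraries. The mean of Lck was 1.35 ± 0.85 CPM in AP_34d, that of Prf1 was 0.247 ± 0.0731 CPM and that of Cd8a 1.23 ± 0.47 CPM. Against RA_0, Lck alone of the 10 was higher in both AP_34d libraries (14.1% of transcripts) and Prf1 alone was lower in both (also 14.1% of transcripts). Reads in AP_34d and RA_0 were 10 and 5 against 2 and 3 for Lck, and 1 and 2 against 4 and 5 for Prf1. Among the 6 tested members 0 were called in AP_34d against RA_0, with 0 at an unadjusted p under 0.05, and 0 of 10259 transcripts (0%) were called, with 489 at an unadjusted p under 0.05. The log2 differences ran from -0.57 ± 0.77 for Prf1 to 0.64 ± 1.09 for Lck.

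In placebo at 34 days the libraries lay far apart for most members. The means (± SD, n = 2) were 25.4 ± 33.7 CPM for Lck, 18.3 ± 25.5 CPM for Cd3e, 12.8 ± 16.7 CPM for Cd8a and 10.5 ± 12.1 CPM for Prf1, each with an SD larger than the mean. By contrast Nkg7 was 1.41 ± 0.39 CPM in PLA_34d and 0.491 ± 0.356 CPM in RA_0. Both PLA_34d libraries lay above both RA_0 libraries for 6 of 10 members, Cd3d, Cd2, Lck, Zap70, Nkg7 and Prf1 (15.8% of transcripts). Since PLA_34d replicate 1 was picked for its height in the members, this count turned mainly on replicate 2 and is no independent support. In PLA_34d against RA_0 limma called 0 of 6 members and 0 of 10259 transcripts (0%), with 3 members and 328 transcripts at an unadjusted p under 0.05. The log2 difference of Lck was 2.96 ± 1.09 (limma adjusted p = 0.914), and 2 other T cell members, Cd2 and Cd8a, had 2.1 ± 0.93 and 1.83 ± 0.96. Prf1 had 2.07 ± 0.77, Nkg7 0.70 ± 0.52 and Gzmk 0.43 ± 0.52.

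These values turned on which PLA_34d library was kept. Without replicate 1 the log2 difference of Lck in PLA_34d against RA_0 was 0.81 ± 0.65 and that of Cd8a -0.0052 ± 0.63, with 0 members called. Without replicate 2, the group being then a lone library assumed to vary like the others, limma called 7 of 9 tested members (Cd3e, Cd3d, Cd2, Cd8a, Lck, Zap70 and Prf1) beside 438 of 10943 transcripts (4%). Cd3e, Cd3d and Zap70 passed the filter there only because that lone library was high, so these calls restate its height and are no independent support. Nkg7 and Gzmk were not among them, with log2 differences of 0.87 ± 0.60 and 0.99 ± 0.48. DESeq2 on the read counts recovered from the table called Lck (log2 difference 5.76 ± 1.26, adjusted p = 0.00956) beside 38 of 10259 transcripts (0.37%), and limma-voom and edgeR called 0 members in every comparison. Lck had passed the filter through PLA_34d, with 439 and 11 reads there. DESeq2 was not refitted without replicate 1, so its call also rests on that library and is no independent support.

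The last pair of groups was acupuncture against placebo at 34 days. Both PLA_34d libraries lay above both AP_34d libraries for 6 of 10 members, Cd3d, Cd2, Zap70, Nkg7, Prf1 and Gzmb (15.3% of transcripts). Here too the count turned on PLA_34d replicate 2, as replicate 1 was picked for its height, and is no independent support. In AP_34d against PLA_34d limma called 0 of 6 members and 0 of 10259 transcripts (0%), with 2 members and 561 transcripts at an unadjusted p under 0.05. Prf1 came closest, with a log2 difference of -2.64 ± 0.77 (limma adjusted p = 0.846). Its values did not overlap, with 0.195 and 0.299 CPM in AP_34d against 19.1 and 1.99 CPM in PLA_34d. Without PLA_34d replicate 1 the difference of Prf1 was -1.26 ± 0.58, and Cd8a and Gzmk turned to 0.14 and 0.30. In that same fit the difference of Lck went from -2.32 to -0.17 and that of Cd2 from -2.24 to -0.56. Without PLA_34d replicate 2 limma called 7 of 9 members, beside 453 of 10943 transcripts (4.14%), which again restates the height of the lone library. DESeq2 called Cd2, Lck and Prf1 beside 87 of 10259 transcripts (0.848%). In PLA_34d they had 174 and 7, 439 and 11, and 170 and 14 reads. DESeq2 was not refitted without replicate 1, so these calls also rest on that library. The change of the acupuncture-placebo difference between 1 h and 34 days (an interaction term) gave 0 calls among 6 members and among 10259 transcripts (0%), with 2 members and 416 transcripts at an unadjusted p under 0.05. It ran from -3.27 ± 1.54 for Lck to -1.49 ± 0.73 for Gzmk. Without PLA_34d replicate 2 it was called for 6 of 9 members, beside 308 of 10943 transcripts (2.81%), with the same limit. Without PLA_34d replicate 1 the value for Lck was -1.12 ± 0.83 and without AP_1h replicate 1 it was -2.49 ± 1.74, each with 0 members called.

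**Figure D4:**
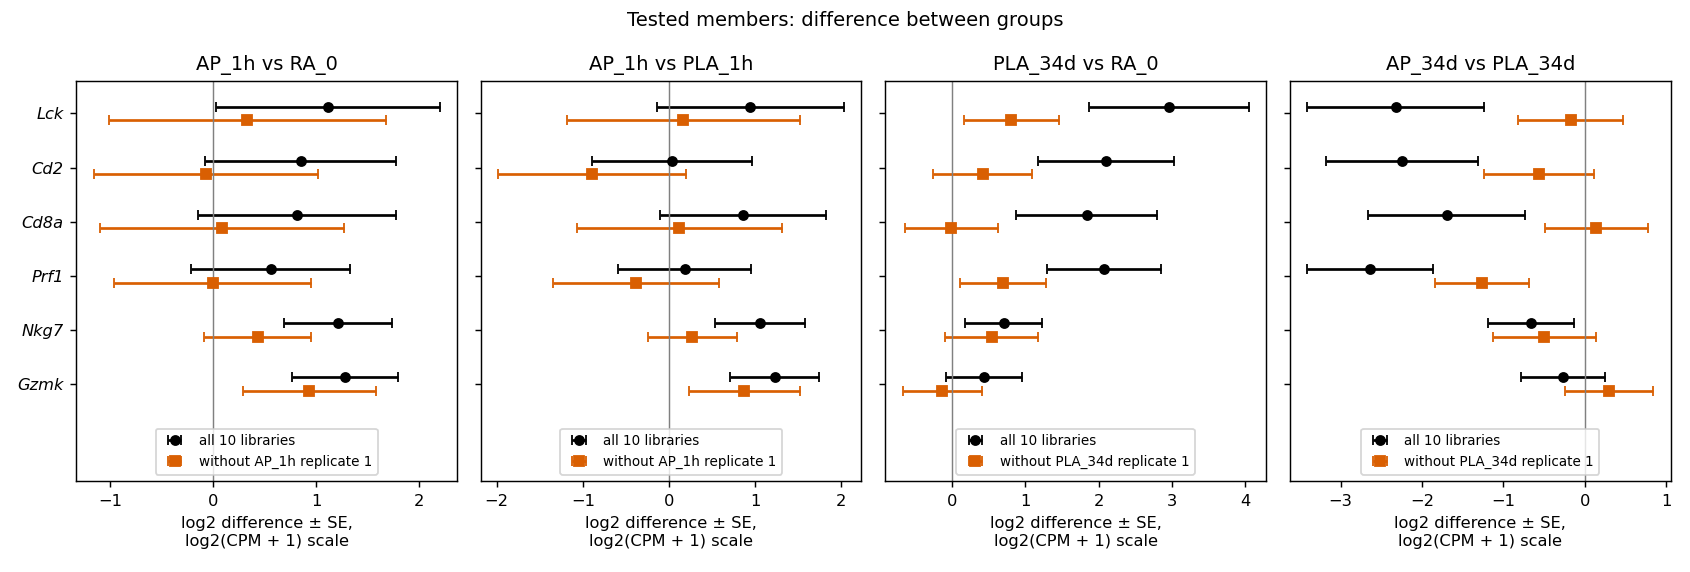
Log2 difference ± SE of the 6 tested members in 4 comparisons, with all 10 libraries (black circles) and without the high library of the comparison (orange squares). With all libraries Lck in PLA_34d against RA_0 is at 2.96, and without PLA_34d replicate 1 it is at 0.81.

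The other genes of the pathway were read from lists of T cell and NK genes. None of their tested transcripts was called by limma in any of the 7 comparisons (3 of the receptor complex and coreceptor list, 6 of the signalling list, 9 of the transcription and homing list and 11 of the cytotoxic granule and NK list). In PLA_34d against RA_0, 0, 3, 2 and 2 of these had an unadjusted p under 0.05, and in AP_1h against RA_0 0, 0, 4 and 4 had one. Of the T cell receptor signalling genes, 15 of 15 with reads were highest in PLA_34d replicate 1, and among the other 9 libraries 14 of the 15 were highest in AP_1h replicate 1. Their sum was 337 CPM in PLA_34d replicate 1, 39.6 CPM in AP_1h replicate 1 and between 12.8 and 24.3 CPM in the other 8. Fyn, a kinase related to Lck and the most abundant of the list, was at 23.2 CPM in PLA_34d replicate 1, 12.4 CPM in AP_1h replicate 1 and between 5.62 and 9.21 CPM elsewhere. Of the receptor complex and coreceptor genes 10 of 11 were highest in PLA_34d replicate 1. Cd4, the coreceptor of helper T cells, also present on rat macrophages, was at 53.4 CPM there, 9.73 and 2.94 CPM in AP_1h, and up to 12.1 CPM elsewhere. The exception was Cd28, a costimulatory receptor, highest in AP_1h replicate 2 at 14.1 CPM and named here after its values were seen.

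The following genes of these lists were picked after their values were seen and are given as values. Ccr7, which guides naive T cells into lymph nodes, was at 45.2 CPM in PLA_34d replicate 1 and at 0.216 CPM in AP_1h replicate 1, against up to 0.995 CPM in the other 8. Ccl5 and Cxcr6, a chemokine and a chemokine receptor of effector lymphocytes, were highest in AP_1h replicate 1 at 15.4 and 11.5 CPM, with 3.48 and 2.92 CPM in PLA_34d replicate 1. Cxcr3, among the genes most like the members (below), went the other way, at 4.22 CPM in AP_1h replicate 1 and 6.28 CPM in PLA_34d replicate 1. Of the 15 transcription and homing genes with reads, 12 were highest in PLA_34d replicate 1 and 1 in AP_1h replicate 1. S1pr1, the most abundant gene of the transcription and homing list and also found in vessel cells, was at 111 CPM in PLA_34d replicate 1 and at 79.8 and 59.8 CPM in AP_1h. The whole list summed to 475 CPM in PLA_34d replicate 1 and 145 CPM in AP_1h replicate 1. It summed to 87.9 CPM in AP_1h replicate 2, within the 79.3 to 105 CPM of the remaining libraries. Klrk1, the NKG2D receptor of NK and CD8 T cells, was at 24.7 CPM in PLA_34d replicate 1 and at 5.62 CPM in AP_1h replicate 1. Of the 29 cytotoxic granule and NK genes with reads, 17 were highest in PLA_34d replicate 1 and 6 in AP_1h replicate 1. Their sum, between 518 and 851 CPM, was carried by Lamp1, a lysosomal protein of most cells, at between 379 and 678 CPM, and says little of lymphocytes.

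Markers of other cells moved with the same libraries. All 13 B cell genes with reads were highest in PLA_34d replicate 1, with none at 0 there, and Cr2, a complement receptor of B cells and follicular dendritic cells, was at 91.4 CPM against 0 in AP_1h replicate 1 and up to 3.36 CPM (AP_1h replicate 2) in the rest. The B cell sum was 13 CPM in AP_1h replicate 1 and 21.0 CPM in AP_1h replicate 2, the reverse of the order of the members, and between 3.88 and 10.1 CPM in the other 7. Of the lymph node stroma and vessel genes 9 of 10 were highest in PLA_34d replicate 1, with a sum of 715 CPM against 55.7 to 122 CPM elsewhere. Ccl21, a chemokine that draws naive T cells, was at 314 CPM there and between 6.30 and 66.6 CPM in the others. Glycam1, a mucin of lymph node vessels, was named after its values were seen and was at 172 and 4.12 CPM in PLA_34d and at 0 in the other 8. The part of lymph node cells in the member values of this library was not tested.

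In AP_1h replicate 1 the macrophage and MHC class II lists were high beside the members and the T cell receptor signalling list. The macrophage sum was 346 CPM there, 322 CPM in PLA_34d replicate 1, 268 CPM in AP_34d replicate 1 and between 97.4 and 155 CPM in the other 7. C1qc, a complement gene of macrophages, was at 59.1 and 25.2 CPM in AP_1h. MHC class II genes summed to 1082 CPM in AP_1h replicate 1 and 1537 CPM in PLA_34d replicate 1, against 200 to 487 CPM in the other 8, and Cd74, their invariant chain, was at 442 and 680 CPM in these 2 libraries. The neutrophil sum was highest in AP_1h replicate 1 at 27.4 CPM, with 2.15 to 22.0 CPM in the others, and S100a9 was at 9.95 and 1.96 CPM in AP_1h. Only 3 of the 7 neutrophil genes with reads were highest in AP_1h replicate 1. Mast cell genes (6.74 to 26.7 CPM, of which Cma1 1.42 to 5.73 CPM) and adipocyte genes (133 to 340 CPM, of which Fabp4 115 to 318 CPM) did not single out AP_1h replicate 1. Muscle fibre genes fell on the other side, with 0 of 9 higher in AP_1h replicate 1 than in replicate 2, and 0 of 9 higher in PLA_34d replicate 1 than in replicate 2. Acta1, skeletal actin, was at 30415 and 58013 CPM in AP_1h and at 44268 and 92680 CPM in PLA_34d. The part of these cells in the member values was not tested.

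**Figure D5:**
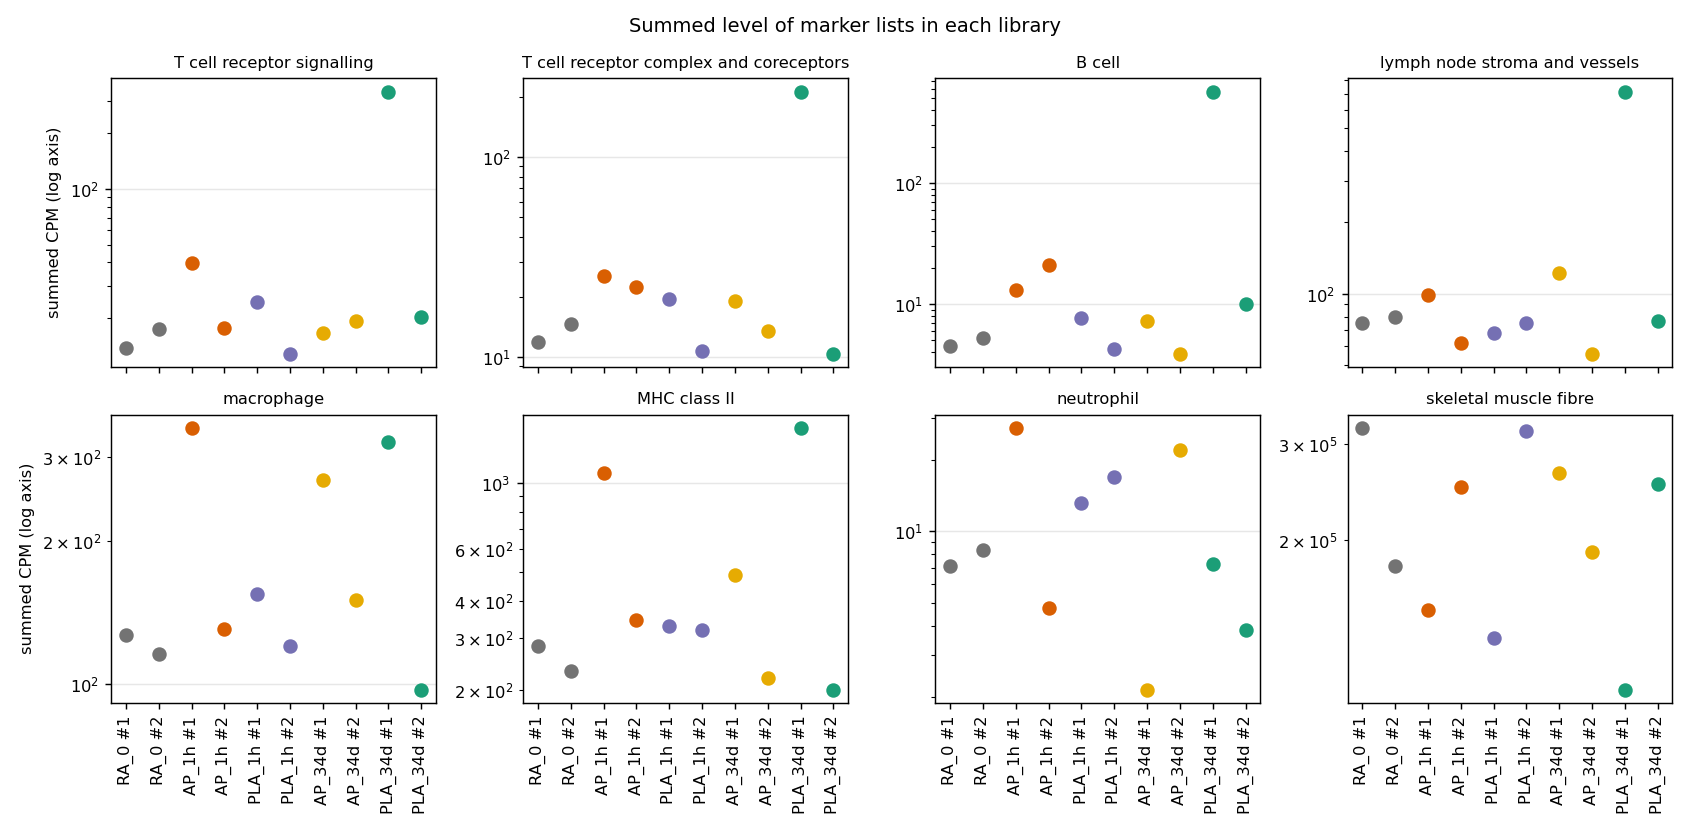
Summed level of 8 marker lists in each library, in CPM on log axes that differ between panels, coloured by group. PLA_34d #1 is highest for the T cell, B cell, lymph node and MHC class II lists, AP_1h #1 is highest for the macrophage and neutrophil lists, and PLA_34d #1 is lowest for muscle fibre.

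All tested transcripts other than the members were ranked for likeness to them by Pearson r with the mean standardised profile of the 6 members that passed the filter. Over 10 libraries the most alike were Cfp, Myo1g, Napsa, Cxcr3, Fam107b, Pycard, Cd37, RT1-Da, Klrk1 and Aif1, with r from 0.97 to 0.95. Cfp, which encodes the complement factor properdin, was at 15.8 CPM in AP_1h replicate 1, 17.9 CPM in PLA_34d replicate 1 and up to 9.62 CPM elsewhere. Myo1g, a myosin of blood cells, was at 7.78, 38.3 and up to 3.67 CPM. Over the 9 libraries without PLA_34d replicate 1 they were Ccl5, Cfp, Slamf8, Cd37, Slamf9, St14, Myo1g, Snx1, Cxcr3 and Fgfr3, with r from 0.97 to 0.91. Cfp, Cd37, Myo1g and Cxcr3 stood in both lists. Cxcr3, a chemokine receptor of effector T cells, was at 4.22 CPM in AP_1h replicate 1, 6.28 CPM in PLA_34d replicate 1 and up to 1.54 CPM elsewhere. All points share their libraries and depth, and the 2 high libraries set most of each r.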

How the data were processed

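RNA of muscle beneath the skin was sequenced by the authors on an Illumina HiSeq instrument after TruSeq v2 library preparation. Per the submitters' processing notes and the study's methods, reads were called with CASAVA 1.8.2, trimmed with cutadapt 1.2.1, aligned to rn4 with Bowtie2 2.1.0, assigned to UCSC transcripts with HTSeq 0.5.4p3 and scaled with edgeR 3.4.2. Whether strand was used in counting is not given in the sources used here. The value the authors deposited is a signal, CPM with TMM factors. It was a whole multiple of 1 read for 100% of values (tolerance 0.01 reads), so read counts were recovered from it. Columns were matched to samples by their headers, which the deposited data pair with each sample, and no column was left unmapped (0).

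Transcripts that reached 1 CPM in each library of some group (10259 of 17221) were tested as log2(CPM + 1), a scale that understates changes of low genes, with limma (1 mean per group, 10 libraries, mean trend, Benjamini-Hochberg adjusted p under 0.05). A pair of groups of 2 cannot go below p = 0.333 in a two-sided exact permutation test, so none is given. Alternatives were limma-voom (the study's choice), edgeR's quasi-likelihood test and DESeq2 on recovered reads, pseudocounts 0.25 and 4, no filter, a mean CPM of 5 or more, DESeq2 size factors, quantile scaling, the 20 most abundant transcripts left out, the compared groups alone, no trend, a replicate block, and each library left out. Counts of 10 or fewer reads stand behind most low values.

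The members and marker lists were chosen with earlier results of these data known. The text names the 10 members, Cst7, the most abundant gene of each marker list (a call would have named others, and there was none) and the 10 transcripts most like the members over 10 and over 9 libraries. Other genes are marked as picked after their values were seen. All 10 members matched the RefSeq table of GRCr8 by transcript, and all 10 matched its promoter table by symbol. Levels were compared between libraries and not between genes, since transcript lengths were not used. Tools were limma 3.58.1, DESeq2 1.42.0 and edgeR 4.0.16 in R 4.3.3, and scipy 1.17.1 and matplotlib 3.10.9 in Python 3.11.15.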

Additional observations from a re-analysis of the deposited data

Results flagged for a closer look

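In 2 members the libraries of paired groups lay apart in opposite directions. For Gzmb, both AP_1h libraries (17 and 4 reads) lay above both PLA_1h libraries (3 and 1 reads). The group means differed by 0.962 CPM, mostly through AP_1h replicate 1. At 34 days both AP_34d libraries (1 and 1 reads) lay below both PLA_34d libraries (6 and 2 reads). Such a turn between the times was shown by 530 of the 13865 transcripts with a read (3.82%). Gzmb was below the filter of the test. With no filter the change of its acupuncture-placebo difference between the times was -1.09 ± 0.43 on the log2 scale (limma adjusted p = 0.965), which does not pass. For Prf1, both AP_34d libraries (1 and 2 reads) lay below both RA_0 libraries (4 and 5 reads). Both PLA_34d libraries (170 and 14 reads) lay above those of RA_0. That pattern was shown by 262 of the 13865 transcripts (1.89%). The counting intervals of the AP_34d and RA_0 libraries overlapped. The AP_34d mean minus the PLA_34d mean was -10.3 CPM, set mostly by PLA_34d replicate 1 at 19.1 CPM, with replicate 2 at 1.99 CPM. The difference between AP_34d and PLA_34d was -2.64 ± 0.77 on the log2 scale (limma adjusted p = 0.846), which does not pass either. Groups of 2 libraries were not tested for a library far from the rest.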

How the results depend on the processing

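The count of members called was 0 in every comparison with all 10 libraries, and stayed 0 under the alternatives except these. DESeq2, fitted only with all 10 libraries, called 1 member (Lck) in PLA_34d against RA_0 and 3 (Cd2, Lck and Prf1) in AP_34d against PLA_34d. Leaving out 1 library at a time, the count ran from 0 to 7 in each of these comparisons and from 0 to 6 for the change of the acupuncture-placebo difference between the times, with every value above 0 from leaving out PLA_34d replicate 2. In AP_1h against RA_0, AP_1h against PLA_1h, PLA_1h against RA_0 and AP_34d against RA_0 it stayed 0 under all of them, and the fit of AP_34d and RA_0 alone left no member above the filter. The filter on a mean CPM of 5 kept Lck alone. The call of Cst7 in AP_1h against RA_0 was lost under 11 of 23 alternatives, with adjusted p up to 0.306 (limma, limma-voom or edgeR).

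Each of the 6 tested members turned its direction in some comparison, always uncalled, in 32 of the recomputed values. The change of the acupuncture-placebo difference between the times turned for none of them. The log2 difference of Cd2 in AP_1h against PLA_1h was -0.16 by limma-voom and -0.14 with a pseudocount of 0.25, and ran from -0.89 (without AP_1h replicate 1) to 0.96 with 1 library left out, with -0.10 without PLA_1h replicate 2. That of Prf1 in the same comparison ran from -0.38 to 0.75, with -0.31 without PLA_1h replicate 2. All ranges in this paragraph are over the fits with 1 library left out. Other alternatives reached further for some, such as Cd2 in AP_1h against RA_0, at 2.23 by edgeR. In AP_1h against RA_0 the range was -0.071 to 1.78 for Cd2 and -0.0045 to 1.13 for Prf1, both lowest without AP_1h replicate 1. In PLA_34d against RA_0 it was -0.13 to 0.99 for Gzmk and -0.0052 to 3.67 for Cd8a, both lowest without PLA_34d replicate 1. In AP_34d against PLA_34d it was -0.82 to 0.30 for Gzmk, with 0.20 without AP_34d replicate 2, and -3.54 to 0.14 for Cd8a. In PLA_1h against RA_0 the range was -0.11 to 0.45 for Lck, -0.23 to 0.35 for Gzmk (-0.034 with quantile scaling), -0.12 to 0.87 for Prf1, -0.39 to 0.31 for Cd8a and -0.12 to 0.44 for Nkg7. In AP_34d against RA_0 it was -0.38 to 0.088 for Cd2, -0.29 to 0.63 for Gzmk, -0.084 to 0.36 for Cd8a and -0.20 to 0.29 for Nkg7 (-0.054 by edgeR and -0.028 by DESeq2). The cause was not tested beyond the library left out.

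The labels give the groups the same replicate numbers, but nothing in them ties a number to an animal or a day. Per the study's methods the tissue was taken at sacrifice, so libraries of different times came from different animals. Differences between replicates 1 and 2 correlated between groups with r from -0.464 to 0.446, so the numbers were not taken as pairs. With a replicate block 0 members and 0 transcripts were called in AP_1h against RA_0, where 3 transcripts were called without it. Scaling by DESeq2 size factors moved the member sum of PLA_34d replicate 1 to 181 CPM, and leaving out the 20 most abundant transcripts moved it to 218 CPM and that of RA_0 replicate 1 from 5.49 to 4.59 CPM. In most libraries depth limited the members to a few reads each.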
